A study of Rattus norvegicus with 12 samples.

Results

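Testis RNA was compared between rats exposed to RS+IS for 21 days and control rats. The comparison takes in every library carrying either label, which is 6 of the 12 libraries of the series, 3 per group. RS+IS is restraint stress followed by swimming in ice water, repeated on each day of exposure. Both groups were male SD (Sprague Dawley) rats labelled as 8 weeks old. The paper gives this age with the weight of the rats, mentions a week of feeding before the experiments, and does not state the age at sampling. The controls were not restrained and did not swim, though food and water were withheld from them over the same hours. The other 6 libraries come from rats exposed for 3 or 14 days and are used here only for levels set beside the 21-day values. The labels carry a single control group and do not say for how long its rats were kept, and they do not say whether each library is a separate rat, so p-values measure the spread between these samples.

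Spermatogenesis proceeds along the wall of the seminiferous tubule. Spermatogonia (SPG) divide by mitosis at the base, retinoic acid commits them to meiosis, spermatocytes (SPC) pair and recombine their chromosomes in a long prophase, and after the meiotic divisions the haploid spermatids build an acrosome and a flagellum and repack their chromatin, first with transition proteins and then with protamines. A gene used in one of these cell types can therefore serve as a marker of it in RNA from whole testis. In such bulk RNA, fewer cells of a type and less RNA per cell cannot be told apart.

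The deposited tables give an estimated count for each of 31715 Ensembl transcripts. The total was between 26639373 and 27437964 estimated counts in the control libraries and between 24541844 and 28210440 in the 21-day libraries. The tables do not pair transcripts with genes. Names exist for 578 markers, 12 of SPG, 181 of SPC and 385 of spermatids, which were recognised by their counts and summed over their 781 transcripts. Each of the 578 markers passed the filter on low counts, so RNA of the markers of all 3 classes was detected. Whether each marker is particular to its cell type in this tissue was not tested. Somatic testis cells (Sertoli, Leydig, peritubular myoid, macrophage, endothelial and blood cells) and genes that respond to glucocorticoids had at most 12.5% of their listed genes named, so shifts in those cells were not tested. Control 1 had the lowest correlation of log2 CPM (counts relative to the scaled library size) with the other 5 libraries, between 0.950 and 0.960.

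Over all 21106 features that passed the filter, 4 transcripts changed at an adjusted p under 0.05 (edgeR's quasi-likelihood test with Benjamini-Hochberg adjustment), which is 0.019% of those tested. At an unadjusted p under 0.05 there were 2991 features, 14.2% of those tested, of which 1786 were higher (8.46%) and 1205 lower (5.71%) in the 21-day group. The median log2 fold change was -0.0031. A log2 fold change over 1 in size was fitted for 957 features and for 0 of the 578 markers. The median size was 0.184 over all features, with a median SE of 0.169, and 0.133 over the markers, with a median SE of 0.0978. The typical named germ cell gene thus had a smaller fitted difference and a smaller error than the typical transcript.

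The 4 transcripts that changed have no gene name here. ENSRNOT00000017708.5, of 657 bases, rose: its level was 26.3, 19.8 and 22.6 CPM in control libraries 1 to 3 and 125, 143 and 123 CPM in the 21-day libraries, a log2 fold change of 2.51 (SE 0.123, edgeR, Benjamini-Hochberg adjusted p = 0.00205). The groups lie far apart. In the 14-day libraries its estimated counts were 3328, 3762 and 428, and in the 3-day libraries 500, 1003 and 442, so 2 of the 14-day libraries were near the 21-day counts of 3135, 3886 and 3095 and the third was near the 3-day ones.

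ENSRNOT00000074804.2, of 643 bases, fell from 2440, 2964 and 3248 estimated counts in the control libraries to 0 in each 21-day library (edgeR, Benjamini-Hochberg adjusted p = 0.00205). Against a floor of 3 counts over the 21-day group this is at least 2753-fold lower. It was also at 0 in 2 of the 14-day libraries and at 2612 in the third, while the 3-day libraries held between 2807 and 3483. The 14-day library without the loss is the one in which the previous transcript was low.

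ENSRNOT00000078354.1, of 4218 bases, fell from 2476, 2318 and 2394 estimated counts to 1239, 1375 and 1133, a log2 fold change of -0.87 (SE 0.0677, edgeR, Benjamini-Hochberg adjusted p = 0.0211). The fourth transcript fell by 1.24 on the log2 scale (edgeR, Benjamini-Hochberg adjusted p = 0.0211), from 701, 752 and 679 to 278, 302 and 279 estimated counts. Its counts in the 3-day libraries were already between 239 and 514.

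None of the 578 markers reached an adjusted p under 0.05 in this fit. The smallest adjusted p was 0.144 (edgeR, Benjamini-Hochberg), for the spermatid marker Ccdc27. At an unadjusted p under 0.05, 5 of 12 SPG markers were lower and 0 higher, 16 of 181 SPC markers were lower (8.84%) and 0 higher, and 54 of 385 spermatid markers were higher (14%) and 1 lower. Over all features 8.46% were higher and 5.71% lower by the same criterion. The share of SPC markers that were lower is therefore near the background. The median log2 fold change was -0.33 over the SPG markers, -0.065 over the SPC markers and 0.15 over the spermatid markers, and 11 of 12, 140 of 181 and 38 of 385 values were negative.

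The class medians were also taken library by library, as the log2 ratio of each marker to its control mean. For SPG markers the medians were 0.10, -0.092 and -0.059 in control libraries 1 to 3 and -0.28, -0.38 and -0.28 in the 21-day libraries, which do not overlap. For SPC markers they were -0.092, 0.069 and 0.024 against -0.14, 0.018 and -0.080, and for spermatid markers -0.14, 0.10 and 0.033 against 0.046, 0.24 and 0.14. In both of these classes the groups overlap. Within their groups, control 1 and 21-day 1 are the lowest in both classes, and control 2 and 21-day 2 the highest.

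**Figure D1:**
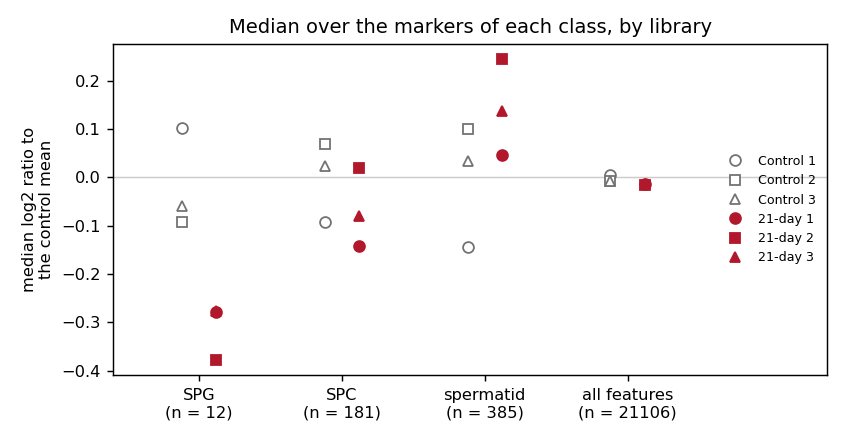
Median log2 ratio to the control mean (vertical axis) over the markers of each class and over all 21106 features tested, 1 point per library, control in grey and 21-day in red. The 21-day SPG medians, from -0.28 to -0.38, lie below those of all 3 control libraries, while the SPC and spermatid medians of the groups overlap.

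The SPC and spermatid counts rested on single libraries. Without control 1, 22 spermatid markers were higher and 30 SPC markers lower, with class medians of 0.077 and -0.12, where 7.54% of all features were higher and 5.16% lower. Without 21-day 1, 82 spermatid markers were higher and 1 SPC marker lower, with class medians of 0.19 and -0.033, beside 7.71% and 4.37% of all features. With scaling factors taken from the markers alone, chosen after the data were examined, 73 spermatid markers were higher and 90 SPC markers lower, beside 5.33% and 11.1% of all features. The signs of the 3 class medians were the same under each scaling and each omission tried.

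As a share of all estimated counts, SPG markers held 0.0961% ± 0.0127 in the control group and 0.0790% ± 0.0026 in the 21-day group (SD, n = 3 each). SPC markers held 4.90% ± 0.184 and 4.66% ± 0.0933. Spermatid markers held 9.74% ± 0.643 and 10.9% ± 0.502. The SPG share was 0.111% in control 1 against 0.0874% and 0.0902% in the other control libraries, and the difference of -0.0171 percentage points was -0.00976 without control 1. Most of the SPG share of counts, and most of its fall, belongs to the chaperone gene Hspa5, whose CPM is given below. Hspa5 also had the highest mean TPM of the SPG markers in the control group, 310, ahead of Slc25a31 at 155. The SPG share therefore follows mainly Hspa5 and does not stand for the class. A share without Hspa5 was not computed. The SPC difference of -0.235 percentage points was -0.146 without control 2.

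The SPG list holds genes of the mitotic cycle, of meiotic entry and of protein folding. Ccne2, cyclin E2, which drives entry into S phase, was at 66.7, 67.4 and 68.1 CPM in the control libraries and at 48.5, 52.9 and 55.4 CPM in the 21-day libraries. The control values lie within 2 CPM of each other and all 3 stressed libraries are lower, with a log2 fold change of -0.37 (SE 0.0708, edgeR, Benjamini-Hochberg adjusted p = 0.154). Ccnd1, cyclin D1, which acts earlier in G1, was at 15.2, 8.01 and 8.10 CPM against 16.3, 7.94 and 9.83 CPM. Here library 1 of each group is high and the groups overlap, and the log2 fold change of 0.12 (SE 0.348) ranged from -0.23 to 0.49 when 1 library was left out.

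Tex19.1, a germ cell gene that restrains retrotransposons, was at 17.5, 15.8 and 17.4 CPM against 11.7, 13.1 and 13.96 CPM, a log2 fold change of -0.39 (SE 0.105, edgeR, Benjamini-Hochberg adjusted p = 0.209). Hspa5, the main chaperone of the endoplasmic reticulum, was at 721, 607 and 611 CPM against 546, 553 and 525 CPM, with a log2 fold change of -0.26 (SE 0.0863, edgeR, Benjamini-Hochberg adjusted p = 0.276). Slc25a31, the mitochondrial ADP/ATP carrier of germ cells, was at 75.1, 81.4 and 75.2 CPM against 64.7, 69.3 and 69.8 CPM, with a log2 fold change of -0.19 (SE 0.0669, edgeR, Benjamini-Hochberg adjusted p = 0.297). In each of these 3 genes every 21-day library is below every control library.

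The other SPG markers missed the unadjusted threshold. Nucks1, Elavl2 and Atad5, with log2 fold changes of -0.42, -0.29 and -0.13, had groups that do not overlap. Cdk2ap2, at -0.41, and Rac1, at -0.20, had groups that overlap. Cited1, a transcriptional coregulator, had the lowest log2 fold change of the list, -0.70 (SE 0.363), but its CPM was 48.5 in control 1 and 19.0 and 19.9 in the other control libraries, against 16.4, 20.5 and 16.8 in the 21-day libraries. Its difference rests on control 1. In all, 8 of 12 SPG markers had a 21-day group wholly below the control group, where 10.2% of all features did. Stra8 is among the 8 with its counts as deposited. Its groups overlap in CPM under another reading of its values, given below.

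**Figure D2:**
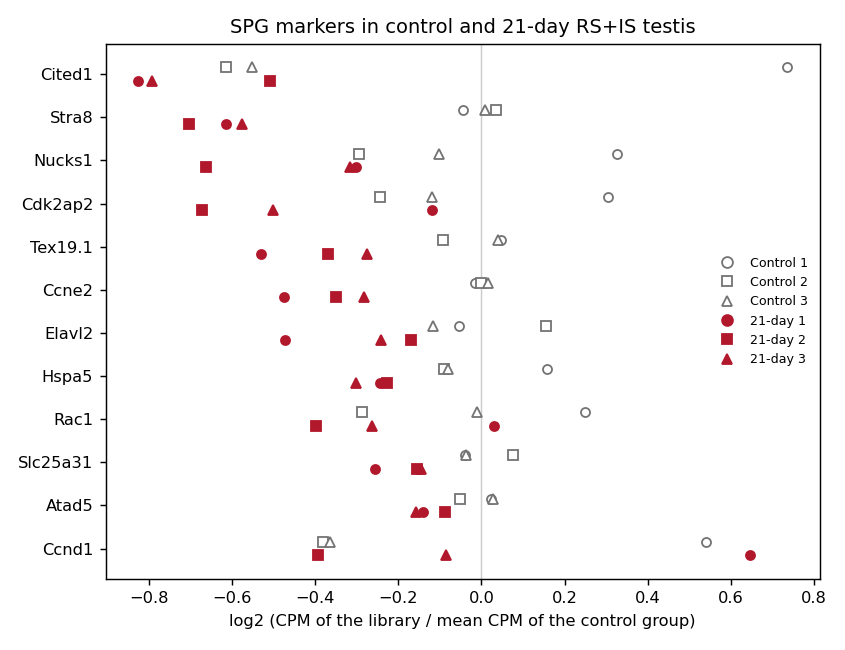
Log2 ratio of CPM to the control mean (horizontal axis) for the 12 SPG markers in each control (grey) and 21-day (red) library, ordered by log2 fold change. Ccne2, Stra8, Tex19.1, Hspa5 and Slc25a31 have 21-day points to the left of all control points, while Cited1 and Ccnd1 spread widely within the control group. Stra8 is drawn from its counts as deposited.

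Stra8, the gatekeeper gene of meiotic initiation, requires a caveat of its own. As deposited, its estimated counts were 243, 238 and 246 in the control libraries and 146.72, 149.2373 and 150.737 in the 21-day libraries. That is 8.68, 9.17 and 9.01 CPM against 5.85, 5.50 and 6.01 CPM, a log2 fold change of -0.63 (SE 0.123, edgeR, Benjamini-Hochberg adjusted p = 0.154). The groups lie well apart on this reading.

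The deposited values of Stra8 do not follow from one another. TPM, the level per length, is the count over the effective length, scaled so that each library has the same total (1000000). For the other transcripts checked in each library, between 24291 and 24767, the deposited TPM equals what the count gives to within 0.000962%, Piwil1 in the 14-day libraries being the exception. For Stra8 the deposited TPM departs from it by -0.491%, 3.97% and 1.46% in 21-day libraries 1 to 3. The Stra8 count is whole in the 6 control and 3-day libraries and not whole in the 6 libraries of 14 and 21 days.

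The TPM totals differ as well. The deposited TPM of 21-day libraries 2 and 3 falls short of 1000000 by 3.05 and 3.97, and that of 21-day 1 by 0.0155. In the control and 3-day libraries the total was within 0.0869 of 1000000. The deposited TPM of Stra8 itself was 13.1 ± 0.117 in the control group and 8.39 ± 0.644 in the 21-day group (SD, n = 3 each), so the shortfall is sizeable beside its level.

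Stra8 was therefore computed in 3 ways. Counts that follow from the deposited TPM are 146.0, 155.2 and 152.9 in the 21-day libraries and give a log2 fold change of -0.61 (edgeR, Benjamini-Hochberg adjusted p = 0.155). Counts that would restore the total, if the whole shortfall were assigned to Stra8, are 146.3, 216.9 and 221.5 and give -0.25 (SE 0.175, edgeR, Benjamini-Hochberg adjusted p = 0.537). Whether the shortfall belongs to Stra8 was not tested. In each of these readings all 3 stressed libraries are below all 3 control libraries when counts are divided by the unscaled library total. For each, the exact two-sided permutation test gave p = 0.1, the smallest that 3 libraries against 3 allow. For the counts that restore the total, the test used these unscaled shares. In CPM, which uses the scaled library size, those counts give groups that overlap, since 21-day 3 lies above control 1. The size of the Stra8 difference, however, ranges from -0.63 to -0.25 with the reading, and the adjusted p values under 0.05 that a fit of all 12 libraries and DESeq2 gave for it used the counts as deposited. With the counts that restore the total, 4 rather than 5 SPG markers had an unadjusted p under 0.05, and the SPG median was -0.27 rather than -0.33.

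**Figure D3:**
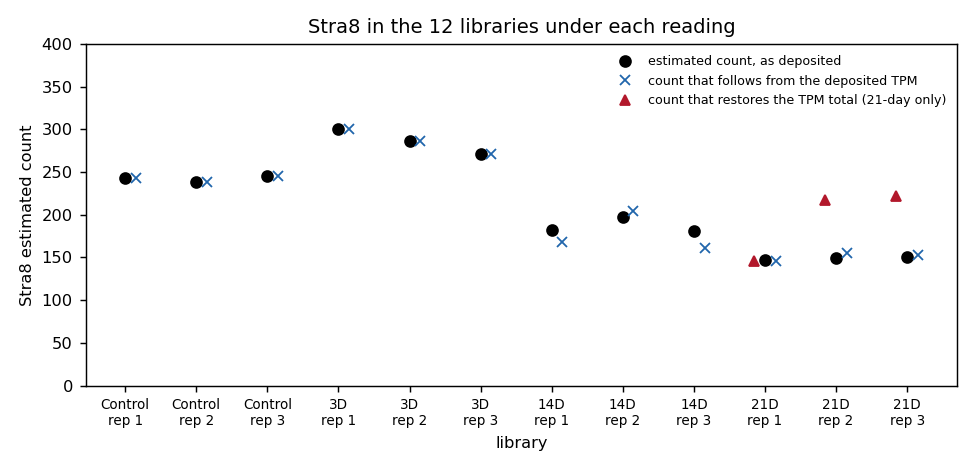
Stra8 estimated count (vertical axis) in each of the 12 libraries as deposited (black), as it follows from the deposited TPM (blue) and, for 21-day libraries, as it would restore the TPM total (red). The red points of 21-day libraries 2 and 3, at 216.9 and 221.5, lie near the control counts of 238 to 246, while that of 21-day 1 stays at 146.3.

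Among SPC markers the lower values were small. Psma8, the proteasome subunit of spermatocytes, was at 110, 117 and 112 CPM in the control libraries and at 82.98, 98.6 and 91.7 CPM in the 21-day libraries, a log2 fold change of -0.31 (SE 0.0783, edgeR, Benjamini-Hochberg adjusted p = 0.189, the smallest of its class). Sycp3, a component of the axes along which meiotic chromosomes pair, was at 354, 378 and 392 CPM against 300, 342 and 313 CPM, a log2 fold change of -0.23 (SE 0.0772, edgeR, Benjamini-Hochberg adjusted p = 0.269). Piwil1, an Argonaute protein that binds piRNAs, was at 385, 450 and 426 CPM against 322, 367 and 384 CPM, with -0.23 (SE 0.0938, edgeR, Benjamini-Hochberg adjusted p = 0.334). The 21-day group lies below the control group in all 3, in Piwil1 narrowly, with the closest libraries at 385 and 384 CPM.

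Some of the other lower SPC markers belong to the cell cycle. Cdc20, which activates the anaphase-promoting complex, was at 91.1, 98.7 and 101 CPM against 67.9, 81.0 and 89.0 CPM, with a log2 fold change of -0.29 (SE 0.107). Cks2, a partner of cyclin-dependent kinases in meiosis, was at 56.3, 58.7 and 59.6 CPM against 44.3, 55.6 and 50.0 CPM, with -0.22 (SE 0.0932). Ube2t, the ubiquitin-conjugating enzyme of the Fanconi pathway, was at 36.9, 42.9 and 38.0 CPM against 28.1, 36.0 and 32.5 CPM, with -0.29 (SE 0.112). In all 3, 21-day 1 is the lowest of the 6 libraries.

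Spdya, which activates Cdk2 at meiotic telomeres, had a log2 fold change of -0.20, Shcbp1l of -0.21 and Cklf of -0.29. Arl6ip1 and the mitochondrial import gene Tomm22 each had -0.18 and Chmp2b, an ESCRT gene, -0.16. The end-joining repair gene Xrcc4 had the lowest value of the class, -0.43, with groups that overlap, as did Pbk, at -0.24. The highest SPC value was that of Sccpdh, 0.54, which missed the threshold, with groups that overlap. In all, 22 of the 181 SPC markers had a 21-day group wholly below the control group and 2 wholly above it, where 10.2% of all features were below and 12.1% above.

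Spermatid markers lay on the other side of 0. Tnp1, transition protein 1, which takes the place of histones in elongating spermatids, was the most abundant marker by TPM. Its TPM was 19121 ± 2292 in control testis, 17656 ± 677 after 3 days, 22512 ± 1272 after 14 days and 24545 ± 358 after 21 days (SD, n = 3 each). In CPM it was at 1714, 2301 and 2095 against 2629, 2993 and 2738, a log2 fold change of 0.45 (SE 0.124, edgeR, Benjamini-Hochberg adjusted p = 0.211). Each 21-day library is above each control library, and control 1 is the lowest of the 6.

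Tnp2, transition protein 2, was at 996, 1328 and 1308 CPM against 1451, 1955 and 1575 CPM, with a log2 fold change of 0.46 (SE 0.154, edgeR, Benjamini-Hochberg adjusted p = 0.279). Tssk6, a kinase of the postmeiotic germ cell that takes part in chromatin condensation, was at 189, 167 and 167 CPM against 196, 283 and 255 CPM, with 0.49 (SE 0.138, edgeR, Benjamini-Hochberg adjusted p = 0.217). Its groups nearly touch, since 21-day 1 is close to control 1.

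Many spermatid genes are known to be switched on through the cAMP response element TGACGTCA, so the promoters of the 3 genes just described are shown beside that of Stra8. They are the 150 bases before the annotated start in RefSeq for GRCr8, another build than the one of the count tables, 5′ to 3′ on the strand of the gene. They lie at chr9:82044279-82044428 on the minus strand for Tnp1, chr10:5386585-5386734 on the plus strand for Tnp2, chr16:19559919-19560068 on the minus strand for Tssk6 and chr4:64568430-64568579 on the plus strand for Stra8. Capitals mark the full element in Tnp1, 113 to 106 bases before the start, and its first 5 bases, TGACG, in Tssk6, 104 to 100 bases before the start. Neither is found in the stretches shown for Tnp2 and Stra8.
Tnp1: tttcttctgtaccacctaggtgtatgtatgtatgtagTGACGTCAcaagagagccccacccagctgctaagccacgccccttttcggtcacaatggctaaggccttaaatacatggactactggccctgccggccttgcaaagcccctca
Tnp2: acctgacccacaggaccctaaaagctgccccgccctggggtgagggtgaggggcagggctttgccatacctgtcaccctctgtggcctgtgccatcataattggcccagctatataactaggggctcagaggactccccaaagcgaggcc
Tssk6: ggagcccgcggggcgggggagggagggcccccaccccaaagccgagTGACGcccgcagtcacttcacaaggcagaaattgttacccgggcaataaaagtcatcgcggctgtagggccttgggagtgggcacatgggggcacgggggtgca
Stra8: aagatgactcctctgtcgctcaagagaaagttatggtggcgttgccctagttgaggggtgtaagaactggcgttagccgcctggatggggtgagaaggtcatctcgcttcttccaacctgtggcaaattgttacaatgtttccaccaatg

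Of the 578 markers, 469 matched a RefSeq promoter by symbol, 309 of them spermatid, 151 SPC and 9 SPG markers. Within 250 bases before the start and on either strand, TGACGTCA was found in 4.53% of the spermatid, 3.31% of the SPC and 0 of 9 SPG promoters, and in 1.78% of all 27457 promoters. Among the 54 spermatid markers higher at an unadjusted p under 0.05, 44 had a promoter, and 4 of these held it: Tnp1, Ccdc169, Isg20l2 and Zdbf2. TGACG, which lies within the full element, was found in 27.2% of the spermatid, 28.5% of the SPC and 11.1% of the SPG promoters. It was found in 11 of the 44 promoters of higher spermatid markers and in 19.96% of all promoters. CNCCTCAG, a separate motif, was found in 7.44% of the spermatid, 8.61% of the SPC and 11.1% of the SPG promoters. It was found in 4 of the same 44 and in 7.68% of all. Of the 14 promoters of SPC markers lower at an unadjusted p under 0.05, 0 held TGACGTCA, 1 held TGACG and 0 held CNCCTCAG. These are matches of letters and say nothing of binding.

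The largest log2 fold changes among spermatid markers were those of 2 less abundant genes. Cdkn1c, the cell cycle inhibitor p57, was at 5.32, 5.20 and 5.39 CPM in the control libraries and at 8.00, 9.56 and 7.52 CPM in the 21-day libraries, a log2 fold change of 0.66 (SE 0.147, edgeR, Benjamini-Hochberg adjusted p = 0.168). Ccdc27 was at 36.1, 37.9 and 32.9 CPM against 56.8, 52.9 and 53.1 CPM, with 0.61 (SE 0.0787, edgeR, Benjamini-Hochberg adjusted p = 0.144). In both genes the control libraries lie close together and all 21-day libraries are well above them. Their mean TPM was higher at each longer exposure, 3.63 ± 0.139, 4.79 ± 0.570, 5.26 ± 0.513 and 5.67 ± 0.425 for Cdkn1c and 27.0 ± 2.04, 30.7 ± 2.60, 38.6 ± 2.33 and 40.4 ± 3.54 for Ccdc27 in control testis and after 3, 14 and 21 days (SD, n = 3 each). The 14-day and 21-day means of each gene differ by less than their SD, and differences between stress groups were not tested.

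Got1l1, a relative of the aspartate aminotransferase Got1, was at 21.6, 24.1 and 24.0 CPM against 32.9, 31.8 and 33.3 CPM, with a log2 fold change of 0.49 (SE 0.0797, edgeR, Benjamini-Hochberg adjusted p = 0.154). Fam53c was at 30.2, 28.4 and 28.3 CPM against 37.5, 44.1 and 41.3 CPM, with 0.50 (SE 0.0851, edgeR, Benjamini-Hochberg adjusted p = 0.154). Cdrt4 had 0.51 (SE 0.142). The groups of all 3 genes are apart, with Got1l1 the tightest. The only lower spermatid marker, Bcas2, a splicing factor, was at 27.3, 23.8 and 28.7 CPM against 20.9, 23.0 and 22.2 CPM, with a log2 fold change of -0.27 (SE 0.0969). The smallest of the higher values with groups apart belonged to Rbms1, Ccer1, Spaca7, Tbata, Zdbf2, Dgat2 and Nabp1, between 0.16 and 0.22. In all, 70 of the 385 spermatid markers had a 21-day group wholly above the control group and 1 wholly below it, where 12.1% of all features were above and 10.2% below.

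**Figure D4:**
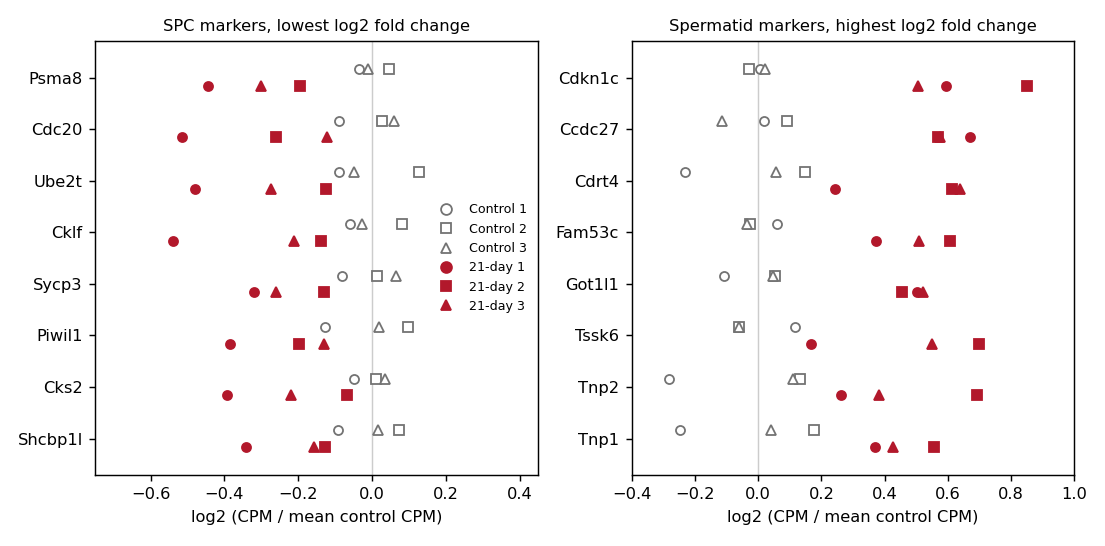
Log2 ratio of CPM to the control mean (horizontal axes) in each library for the 8 SPC markers with the lowest and the 8 spermatid markers with the highest log2 fold change among those with an unadjusted p under 0.05 and groups apart. In each of the 8 SPC markers 21-day 1 lies furthest left of the 6 libraries, while among the spermatid markers the furthest point to the right is Cdkn1c in 21-day 2.

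These lists are read beside the 5.71% of all features that were lower and the 8.46% that were higher at an unadjusted p under 0.05. Within the markers, the list of meiotic entry and prophase genes leaned furthest down. All 12 of its genes were negative, with a median log2 fold change of -0.19, and 6 of them (Stra8, Tex19.1, Psma8, Sycp3, Shcbp1l and Spdya) had an unadjusted p under 0.05, or 5 with the Stra8 counts that restore the TPM total. Of 8 piRNA pathway and germ granule genes, Piwil1 and Tex19.1 were lower and the median was -0.088. Of 22 cell cycle genes, 5 were lower (Ccne2, Cdc20, Ube2t, Pbk and Cks2) and 0 higher, with a median of -0.064.

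Lists of spermatid functions had positive medians, though most members of each did not pass the threshold. All 8 transition protein and spermatid chromatin genes were positive, with a median of 0.19, of which Tnp1 and Tnp2 had an unadjusted p under 0.05. All 5 testis-specific kinase genes were positive, with a median of 0.16, and Tssk6 and Tssk3 passed the same threshold, Tssk3 with groups that overlap. Of 21 flagellum genes 18 were positive, with a median of 0.18. Only Odf3, of the outer dense fibres, was past the threshold, a smaller share than the 8.46% of all features. The Odf3 groups overlap. Of 16 lipid genes 3 were higher, the acyl-CoA synthetase gene Acsl1, the triglyceride synthesis gene Dgat2 and the phospholipase gene Pla2g10, with a median of 0.13.

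Other lists lay nearer to 0, with 1 or 2 members higher in each, against 8.46% of all features. The median was 0.10 over 23 acrosome genes, with Spaca7 higher, and -0.018 over 20 axoneme and motility genes, with the sperm calcium channel gene Catsper4 and the sperm sodium pump gene Atp1a4 higher. It was 0.074 over 16 energy genes, with Got1l1 higher and Slc25a31 lower. It was 0.076 over 18 chaperone genes, with Dnajc5b higher and Hspa5 lower. The lists are not independent of the classes: 20 of the 21 flagellum and 18 of the 23 acrosome genes are spermatid markers, while 14 of the 20 axoneme genes and 9 of the 12 meiotic genes are SPC markers.

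The marker set also gives a stage for 577 of the markers, 260 of them for more than 1 stage. The grouping by stage was chosen after the values were seen. Medians were -0.39 for the 3 markers labelled A1, -0.31 for the 8 labelled In and -0.46 for the 2 labelled BS, all of the SPG class. Stra8 is one of the A1 and BS markers, and with its counts that restore the TPM total these medians were -0.25 and -0.27. Markers of the first meiotic stages did not share one level: the 9 of G1 had a median of 0.0093 and the 7 of early preleptotene (ePL) of -0.18. From zygotene (Z) to diplotene (D) the medians lay between -0.047 and -0.059, with -0.16 over the 25 leptotene (L) and -0.11 over the 32 metaphase I (MI) markers. Round spermatid markers of steps 4, 6 and 8 had medians of 0.14, 0.16 and 0.21 over 306, 180 and 64 markers. Taken by library, the groups overlap at each of these steps. The medians of 21-day 1 were 0.053, 0.046 and 0.038, below those of control 2 at 0.10, 0.097 and 0.10. The groups also overlap at In, G1, L, MI and from Z to D. They do not overlap at A1, BS and ePL, with the Stra8 counts as deposited. The median SE of a single marker was between 0.0870 and 0.173 in all these stages. The medians from Z to D, and those of steps 4, 6 and 8, differ by less than this. Those of BS and G1, and of G1 and ePL, differ by more. This SE belongs to 1 marker and not to a median over several, so it cannot decide whether stages differ. No error was computed for a stage median.

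**Figure D5:**
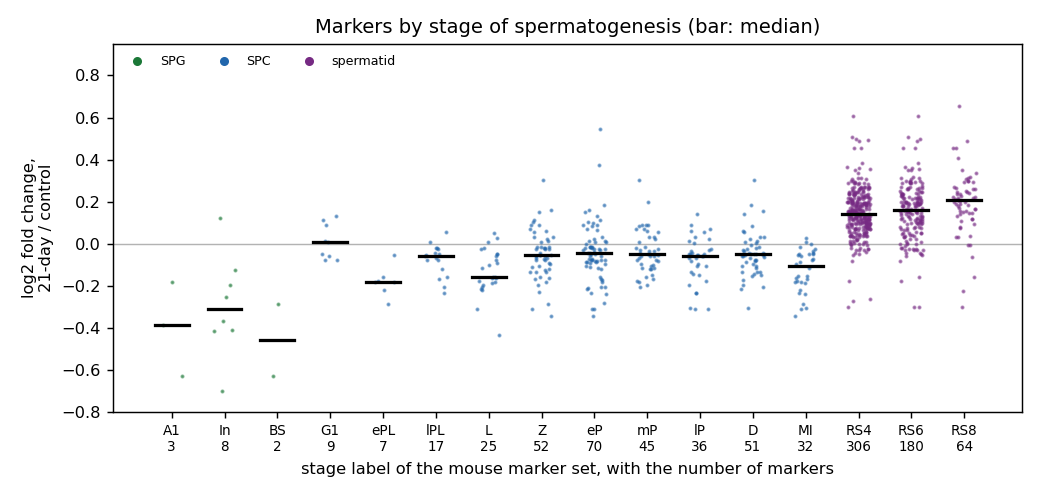
Log2 fold change of the 21-day group against control (vertical axis) for the markers by stage label (horizontal axis, with the number of markers), 1 point per marker and stage, with the median as a bar. The medians plotted lie below 0 up to MI except at G1, and above 0 in the round spermatid stages RS4, RS6 and RS8, where they are 0.14, 0.16 and 0.21.

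The class values were alike over transcript length and level. With the spermatid markers divided into 4 bins by length or by level, the median log2 fold change of a bin was between 0.13 and 0.15, and for SPC markers it was between -0.083 and -0.044.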

How the data were processed

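The authors deposited 1 table per library with estimated counts, lengths, effective lengths and TPM per Ensembl transcript. The deposited TPM is the count per effective length, set to a total of 1000000, except for Stra8 at 14 and 21 days and Piwil1 at 14 days. The totals of the 14-day libraries and of 21-day 2 and 3 fall short of 1000000 by 3.05 to 18.0. The methods of the study name Trimmomatic, HISAT2 on Rnor_6.0 and HTSeq-count, with no versions; the tool behind the estimated counts is not given in the sources used here. Whether counting used strand is not stated, so overlapping antisense genes cannot be told apart. Members and lists were chosen with earlier results of these data known.

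Markers (spermatogonial, spermatocyte and spermatid genes of the study's marker sheet) were matched by their counts: 424 to 1 transcript, 150 to a run of neighbours, 3 to 2 runs, and Piwil1 by counts only. Summing gave 31512 features. Estimated counts were rounded and fitted with edgeR 4.0.16 (R 4.3.3; TMM, filterByExpr, quasi-likelihood test) on the 6 libraries, with Benjamini-Hochberg adjustment over all features tested. SE is the size of the log2 fold change divided by the square root of F. A 21-day group is wholly above or below when no CPM values overlap. The library medians use ratios of CPM + 0.1. The self-test on simulated counts (20591 features) took its spread from the trend over all features. At an adjusted p under 0.05 it found 4 of 65 features with a true log2 change of 0.5, 34 of 66 with 1 and 54 of 64 with 2, and called 8 of 20396 unchanged ones. At an unadjusted p under 0.05 it found 27, 50 and 62 of these, and called 1028 of the unchanged ones.

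Named genes were all SPG markers, Sycp3, Piwil1, Tnp1 and Tnp2, the 8 highest and 8 lowest SPC and spermatid markers among those with an unadjusted p under 0.05 and groups apart, functional list members under that threshold, and the unnamed transcripts past adjustment. Since 0 SPC markers were higher, its highest are the weakest lower ones. Xrcc4 and Sccpdh were named after their values were seen. Replicates of a group differed beyond sampling noise (chi-square over its degrees of freedom, 12.9 to 33.4), so none was treated as a copy. Alternatives were other scalings, filters, DESeq2 1.42.0, all 12 libraries, a replicate block, single transcripts and each library left out. A count of 3 was the floor. A named gene and a stage are not reported here. Figures were drawn with matplotlib 3.10.9.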

Additional observations from a re-analysis of the deposited data

Results flagged for a closer look

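Stra8 was flagged because its deposited count and TPM disagree in the 21-day files, where no other transcript checked does. Its TPM departs from the value its count gives by -0.491% in 21-day 1, 3.97% in 21-day 2 and 1.46% in 21-day 3. The deviation is small beside the Stra8 difference between the groups, but with the TPM missing from the total of 21-day libraries 2 and 3 assigned to Stra8, its log2 fold change goes from -0.63 to -0.25. Which deposited value is the measured one was not tested.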

How the results depend on the processing

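The sign of each class median, of Stra8 and of each of the other 48 named genes was the same under 16 alternatives, except for Ccnd1, which was -0.049 without control 2, -0.039 without control 3 and -0.23 without 21-day 1, the lowest, and 0.49 without control 1, the highest. Adjusted calls depended on the fit: 4 features in the 6-library fit, 666 with all 12 libraries, 733 with DESeq2, 0 with the replicate block and 0 to 3 with 1 library left out (0 without control 3). Of the markers, 14 passed adjustment with all 12 libraries and 14 with DESeq2, Ccdc27, Ccne2, Psma8, Stra8 and Tnp1 among both, and 0 under the others. That is 14 of 578, where 3.03% and 4.32% of all features passed. Stra8 was -0.62 with all 12 libraries and -0.63 with DESeq2, and over the 16 alternatives its log2 fold change was -0.71 to -0.59 and its adjusted p 0.0111 to 0.471 (edgeR or DESeq2). All 16 used its counts as deposited. The counts that restore the TPM total gave a value outside these ranges, -0.25 (edgeR, Benjamini-Hochberg adjusted p = 0.537).

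Unadjusted counts moved as follows. All features: 1946 to 3212 with 1 library left out (1125 to 1774 higher, 821 to 1505 lower), 1126 higher and 2349 lower with factors from the markers alone, and 1866 lower with all 12 libraries. SPG lower: 8 with all 12 libraries, 4 to 6 with 1 library left out. SPC lower: 36 with total counts, 5 with factors from features outside the markers, 90 with factors from the markers alone, 26 with all 12 libraries, 30 with the block and 1 to 30 with 1 library left out. SPC higher: 1 with total counts, with factors from outside the markers, with the block and with all 12 libraries, and 0 to 2 with 1 library left out. Spermatid higher: 116 with total counts, 121 with all 12 libraries, 167 with the block and 22 to 92 with 1 library left out. Spermatid lower: 5 with factors from the markers alone, 2 with single transcripts and 0 to 2 with 1 library left out. The SPG median was -0.41 with factors from the markers alone and -0.36 to -0.22 with 1 library left out. Beside these counts, the higher and lower shares of all features were 8.67% and 6.88% with total counts, 9.23% and 4.8% with factors from outside the markers, 5.33% and 11.1% with factors from the markers alone, 11.3% and 8.48% with all 12 libraries, 8.49% and 5.73% with single transcripts, and 5.21% to 8.21% and 3.8% to 6.95% with 1 library left out. The cause was not tested.

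Of the markers past the unadjusted threshold, 71.1% were higher. This share was 38.6% without control 1, 45.1% without 21-day 2, 93.3% without 21-day 1, 87.9% without control 2, 85.3% with factors from outside the markers and 42.0% with factors from the markers alone, which also moved the median of all features to -0.088 and the higher share of all features from 59.7% to 32.4%.

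The check used does not settle whether the replicate numbers pair the samples. Deviations of same-numbered libraries correlated by 0.244, 0.148 and -0.032, with a mean of 0.120. Those of differently numbered libraries correlated by -0.243 to 0.123, with a mean of -0.059. Blocking on the replicate number, 0 features passed adjustment, and 168 markers were higher and 38 lower at an unadjusted p under 0.05, beside 9.79% and 7.32% of all features.

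At this depth and with 3 libraries per group, simulated log2 changes of 0.5 were mostly not called at an adjusted p under 0.05 (4 of 65). At an unadjusted p under 0.05, 27 of the 65 were called. The simulated spread followed the trend over all features, and the markers had a smaller median SE than all features.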
